A study of Homo sapiens with 2 samples.

Results

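DEAD-box and DEAH-box RNA helicases (gene symbols DDX and DHX) were compared between Huh7 cells infected with a lentivirus that expresses a hairpin RNA against CD133 (shCD133) and Huh7 cells infected with the lentiviral vector alone. Huh7 is an established line from a human hepatocellular carcinoma (HCC), and CD133 is a surface glycoprotein. The members were all genes on the array whose platform symbol begins with DDX or DHX and a digit, apart from DDX58 and pseudogenes, and that had a value on both arrays. Of 54 such symbols 46 had a value, among 11579 named genes measured in all. This rule used no difference between the arrays, but the members were chosen with earlier results of these data known. There was 1 array for vector and 1 for shCD133, so no value has a replicate error and no test was possible. The control is described in the labels as the vector alone, no non-targeting hairpin is mentioned, and the sources used here do not say how many hairpins against CD133 were used. All cells were Huh7, grown in the same medium and described as HCC.

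The 8 symbols without a value were DDX4 and DDX25, both known from germ cells, DDX3Y, DDX6, DDX20, DHX57, DHX58 and the noncoding transcript DHX33-DT. DDX6 is the helicase of P-bodies, where it represses translation and promotes decapping. DDX20 is a subunit of the SMN complex, which assembles splicing ribonucleoproteins. DHX58 encodes LGP2, a relative of the cytosolic RNA sensors. The filter that left these probes empty is not stated, so nothing about their expression can be read from it.

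These enzymes use ATP to pull apart short RNA duplexes or to strip proteins from RNA, and are named for the amino acids of one of their conserved ATPase motifs. DEAD-box members open duplexes locally without travelling along the strand, and DEAH-box members pull on single-stranded RNA from one side. Together they drive nearly every step in the life of an RNA, from splicing and ribosome assembly to export, translation and decay. DDX11 bears the family symbol but is an iron-sulphur DNA helicase.

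Values are log2 intensities, the brightness of a probe's beads after normalization by the authors, and differences are shCD133 minus vector on the log2 scale. A gene is represented by its brightest probe, taken on the mean of the 2 arrays. PROM1, which encodes CD133, had a log2 level of 13.58 with vector and 10.83 with shCD133. Of 10 hepatocyte and hepatoma markers 9 had a value, with log2 levels from 11.65 to 15.48 on the vector array. HNF4A had no probe assigned to it alone in the annotation used. APOA2 (14.78 with vector, 12.97 with shCD133, difference -1.81) and FGB (13.80 and 12.47, -1.32) were lower with shCD133 by more than 2-fold, and the other 7 differed by -0.11 to 0.63. Of 13 markers of leukocytes, fibroblasts, endothelium and cholangiocytes 6 had a value, and among these KRT19 (12.14 with vector, 12.59 with shCD133) and COL1A2 (11.55 and 12.50) were far above the lowest value of the data, 6.65. Their part in the results below was not tested.

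Across the family, the few differences of at least 2-fold were toward lower values, the direction that was also the more frequent among all named genes. At least 2-fold lower with shCD133 (a log2 difference of -1 or less) were 4 of 46 members, DDX46, DDX21, DDX3X and DDX51, and none was at least 2-fold higher. This share, 8.70%, is near that of all named genes, of which 8.26% were lower by 2-fold or more and 2.08% higher. At a 1.5-fold threshold (0.585 in log2) 14 members (30.4%) were lower, against 16.3% of all named genes, and 1 member (2.17%) was higher, against 12.3%. The median difference of the members was -0.08 and that of all named genes 0.11. These values depend on the processing. Counted in either direction, 4 members were 2-fold different (8.70% against 10.3% of all named genes). The count was 7 after centring on the median gene (15.2% against 11.5%) and 9 once the level trend was taken out (19.6% against 12.1%). With background subtraction it was 6, a share below that of all named genes (13.0% against 17.0%). The same held for the mean over a gene's probes, with 3 (6.52% against 8.97%). The median was -0.019 with the mean over a gene's probes and -0.021 without DDX51. Below 0 lay 25 members (54.3%), against 40.7% of all named genes, and above 0 lay 21 (45.7%), against 59.2%. In a bulk culture fewer cells of a type and less RNA per cell cannot be told apart. The middle 50% of members lay between -0.65 and 0.27, and of all named genes between -0.30 and 0.39.

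**Figure D1:**
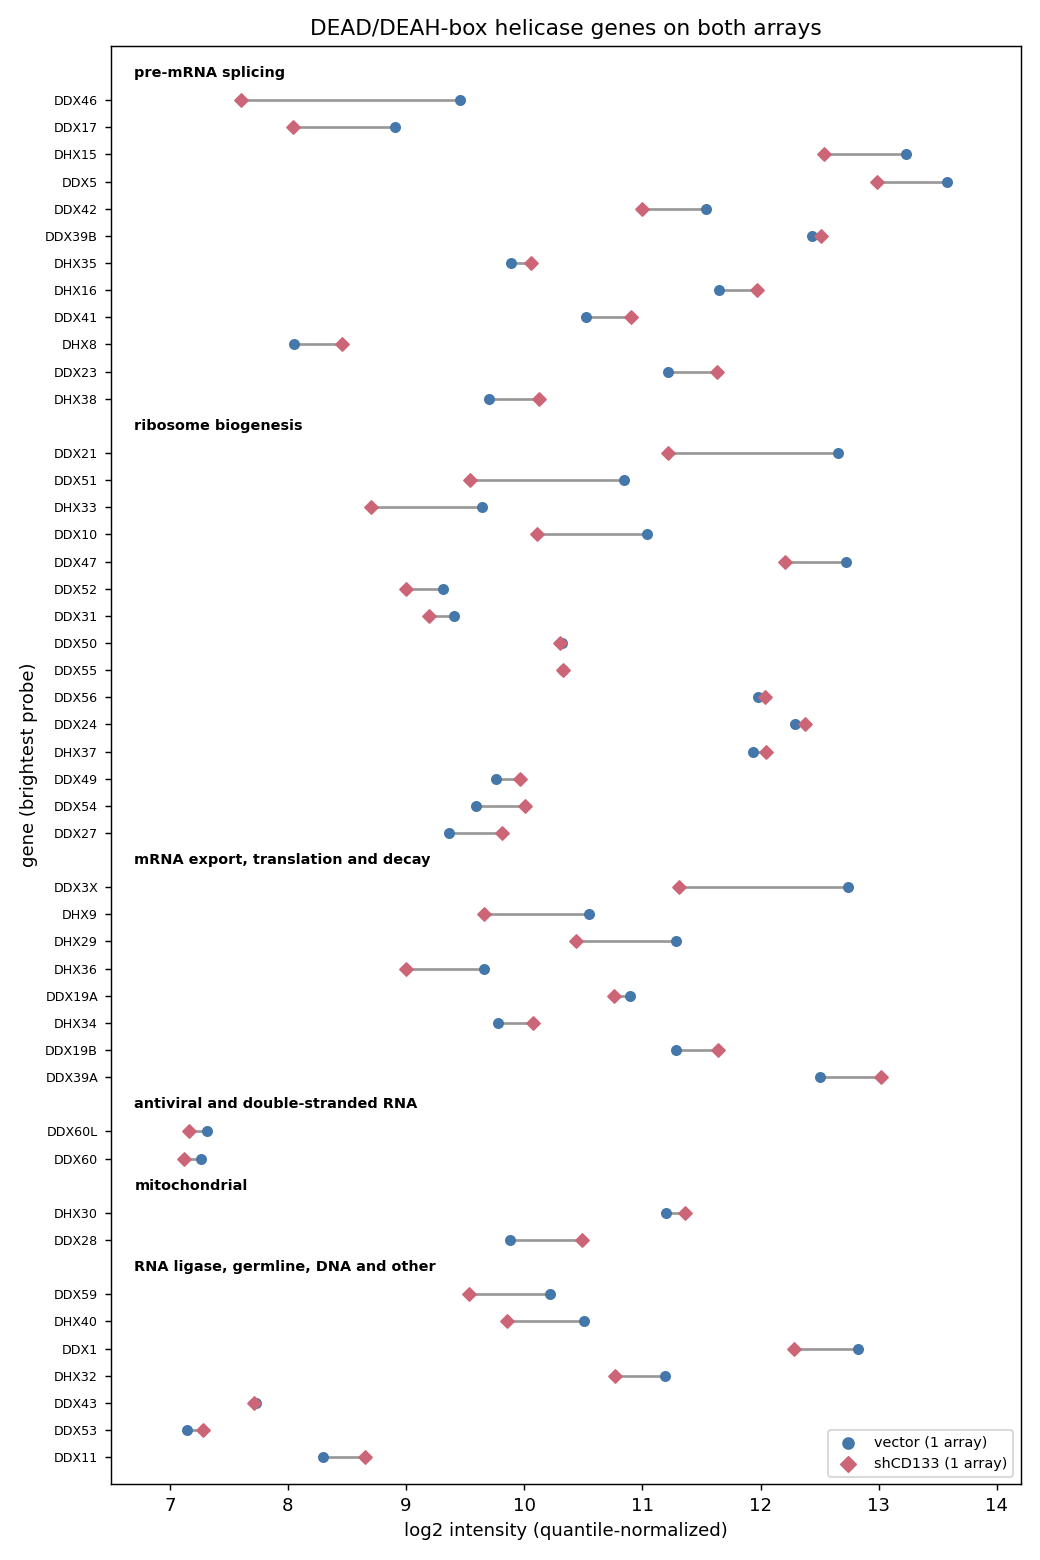
Log2 intensity of the 46 members on the vector array (circles) and the shCD133 array (diamonds), 1 array each, grouped by role and ordered by difference within a role; levels of different genes come from different probes and are not comparable. The longest lines, DDX46, DDX21, DDX3X and DDX51, all run to lower values with shCD133.

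**Figure D2:**
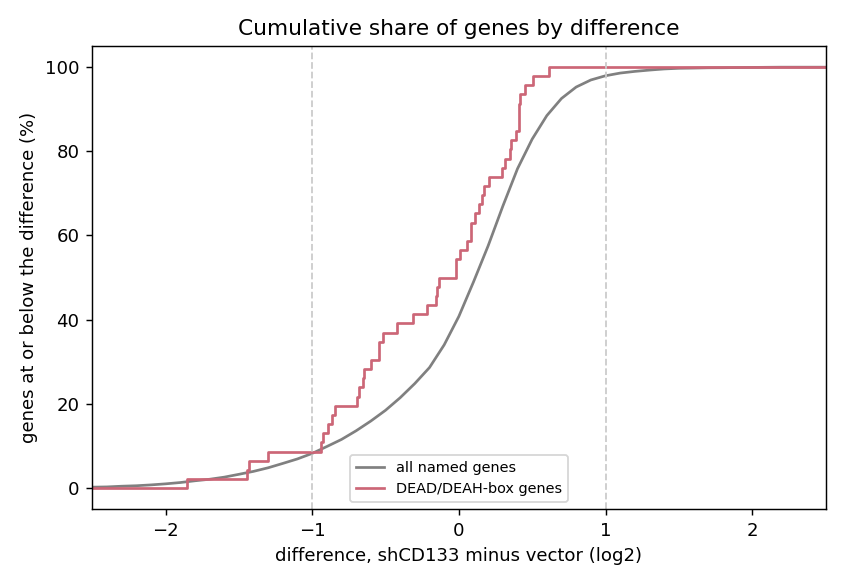
Share of genes (%) at or below each difference (log2, shCD133 minus vector) for the members (step line) and all named genes (grey), with dashed lines at 2-fold. The curves come close at the lower 2-fold line (8.70% and 8.26%). Read at steps of 0.1, the members' curve lies above that of all genes from -1.4 upward. It reaches 100% at 0.61, the highest member.

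Splicing helicases had a median of 0.12 over 12 measured members, against 0.11 for all named genes. In this list 1 member (8.33%) was at least 2-fold lower, against 8.26% of all named genes, and 7 (58.3%) lay above 0, against 59.2%, so these shares were near the background. At least 1.5-fold lower were 4 (33.3%), against 16.3%. DDX46, the human counterpart of yeast Prp5, which remodels the U2 snRNP as the branch site is recognised, had a log2 level of 9.45 with vector and 7.60 with shCD133. Its measured difference was -1.85. The shCD133 value is under 8. No detection call was available to compare such a signal with background, so the difference may be compressed and no fold is given. After subtraction of the lowest unlogged value the DDX46 difference was -2.49.

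DDX42, which associates with the same U2 snRNP subunit SF3B1, had 11.54 with vector and 11.00 with shCD133 (difference -0.55). SF3B1 itself had 11.96 and 10.89 (-1.07), although its other probe differed by -0.41. All of these were lower with shCD133, DDX42 by less than 1.5-fold. DHX15, the counterpart of yeast Prp43, releases the intron lariat and takes spent spliceosomes apart. It had 13.23 and 12.54 (-0.70), and its other probe differed by -0.88.

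Several helicases that act between those steps lay above 0. DDX23 (Prp28 in yeast) exchanges U1 for U6 at the 5' splice site, DHX16 (Prp2) activates the catalytic spliceosome, DHX38 (Prp16) remodels it for exon ligation and DHX8 (Prp22) releases the spliced mRNA. Their differences lay between 0.32 and 0.42, from 11.22 to 11.63 for DDX23, 11.65 to 11.97 for DHX16, 9.71 to 10.12 for DHX38 and 8.05 to 8.46 for DHX8. All 4 exceeded the median of all named genes, 0.11, and none reached 1.5-fold. This grouping was made after the values were seen. DDX41 (0.39) and DHX35 (0.17), both found in late spliceosomes, lay on the same side. Of the spliceosomal helicases with other symbols, SNRNP200, which unwinds U4 from U6, differed by 0.42 and AQR, which binds the intron, by -1.23 (other probe -0.47), so they stood on opposite sides.

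DDX5 and DDX17, close paralogs also known as p68 and p72, take part in splicing, transcription and the processing of microRNA precursors by DROSHA. DDX5 had 13.58 with vector and 12.99 with shCD133, a difference of -0.60. DDX17 had 8.90 and 8.04, a difference of -0.86. Both were at least 1.5-fold lower, each on a single probe. In the list of SMN and Microprocessor partners (10 measured, median 0.07) none was at least 2-fold different, against 10.3% of all named genes. At least 1.5-fold lower were 3 (30%, against 16.3%): DROSHA (-0.94), the snRNA-binding subunit GEMIN5 (-0.81) and STRAP (-0.73). GEMIN4, a partner of DDX20, differed by 0.45, and DGCR8, the RNA-binding partner of DROSHA, was at 10.08 with vector and 10.07 with shCD133.

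Ribosome biogenesis helicases act in the nucleolus, where they fold and trim precursor rRNA and release small nucleolar RNAs. Of 15 measured members 2 (13.3%) were at least 2-fold lower, against 8.26% of all named genes, and 4 (26.7%) at least 1.5-fold lower, against 16.3%. None was 1.5-fold higher, against 12.3%, and the median was -0.02. DDX21, which supports rRNA transcription and processing and also binds 7SK RNA, had 12.66 with vector and 11.21 with shCD133. It was 2.72-fold lower (-1.44).

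DDX50 is the closest paralog of DDX21 and its immediate neighbour on chromosome 10, with no other gene between them in the RefSeq table of GRCh38.p14. Its log2 level was 10.32 with vector and 10.30 with shCD133, a difference of -0.02. The differences of these neighbours thus stood 1.42 apart, each on a single probe. Both genes run in the same direction along the chromosome, and each has a transcription start of its own. Their promoter windows (RefSeq, GRCh38.p14, 250 bases before to 50 after the start) are shown because the neighbours differ in response, together with that of DDX46, the member with the lowest measured difference. Capitals mark the letters CCGGAAG (the core of an ETS factor site) and CCAAT (the CCAAT box) on either strand. DDX21 has another listed start, and the upstream one is shown, chr10:68955920-68956219, plus strand. The window of DDX50 is chr10:68901065-68901364, plus strand, and that of DDX46 chr5:134758529-134758828, plus strand.
DDX21: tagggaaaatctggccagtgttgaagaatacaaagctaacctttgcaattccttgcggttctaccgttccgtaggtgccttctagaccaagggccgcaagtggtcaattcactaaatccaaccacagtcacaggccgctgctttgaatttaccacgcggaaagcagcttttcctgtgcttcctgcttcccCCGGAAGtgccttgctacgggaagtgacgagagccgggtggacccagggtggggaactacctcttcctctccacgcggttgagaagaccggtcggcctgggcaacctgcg
DDX50: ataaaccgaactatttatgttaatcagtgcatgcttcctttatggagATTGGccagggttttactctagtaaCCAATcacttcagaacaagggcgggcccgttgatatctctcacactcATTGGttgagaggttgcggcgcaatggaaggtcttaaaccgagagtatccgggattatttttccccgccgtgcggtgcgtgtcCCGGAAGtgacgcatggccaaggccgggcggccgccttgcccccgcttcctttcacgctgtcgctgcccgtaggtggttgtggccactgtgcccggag
DDX46: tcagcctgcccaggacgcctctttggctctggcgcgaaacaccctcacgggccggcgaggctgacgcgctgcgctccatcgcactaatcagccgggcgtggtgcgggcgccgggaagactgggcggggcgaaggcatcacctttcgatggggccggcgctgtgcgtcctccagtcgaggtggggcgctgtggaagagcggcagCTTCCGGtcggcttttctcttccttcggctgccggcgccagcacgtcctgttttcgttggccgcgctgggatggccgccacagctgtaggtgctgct

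Each of the 3 windows holds 1 ETS core, and only that of DDX50 holds CCAAT boxes, 3 of them. DDX3X and DDX51, the other members at least 2-fold lower, are not shown. The window of DDX51 and the upstream one of 3 for DDX3X hold neither motif, so the ETS core is not common to the 2-fold lower members. Of the 46 members 43 had windows in the table, 55 in all. The ETS core occurred in 40.0% of these 55 and in 10.3% of all 35116 windows, and the CCAAT box in 45.5% and 34.6%. Of 13 members at least 1.5-fold lower that had a window 5 held the ETS core, and of the other 30 members 17 did. The STAT site TTCNNNGAA, searched because the study concerns STAT3, was found in 7.27% of the members' windows and in 7.66% of all windows, and the E-box CACGTG in 16.4% and 7.26%. These motifs were searched on both strands, and those of the ETS core and CCAAT do not overlap in the windows shown. The STAT site and the E-box occur in none of the 3 windows shown. A match is a run of letters and not a measured binding site.

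DDX51, known for its part in the maturation of the 28S rRNA 3' end, was 2.47-fold lower on its brighter probe, from 10.84 to 9.54 (-1.30). Its other probe, for the same transcript, had 8.82 with vector and 8.93 with shCD133, a difference of 0.11. These probes disagree by 1.41, by far the widest gap within a member, and the mean over both is -0.60. The count of members at least 2-fold lower is 3 without DDX51 (6.67%, against 8.25% of all named genes).

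DHX33 and DDX10 came just short of the 2-fold threshold. DHX33, which is needed for rRNA synthesis, had 9.64 with vector and 8.70 with shCD133 (-0.94). DDX10, whose yeast counterpart Dbp4 releases U14 small nucleolar RNA, had 11.04 and 10.11 (-0.93). Both were lower with shCD133, each on 1 probe. The other 11 members of this list lay between -0.52 and 0.45, 7 of them above 0. At the ends were DDX47 (12.73 and 12.21, -0.52), which acts on early 18S precursors, and DDX27 (9.36 and 9.81, 0.45), which acts on the large subunit. Between them DDX52 (-0.31) and DDX31 (-0.21) lay below 0, DDX55 (0.01), DDX56 (0.06), DDX24 (0.08) and DHX37 (0.11) within 0.11 of it, and DDX49 (0.21) and DDX54 (0.41) above.

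The helicases of mRNA export, translation and decay had a median of -0.39 over 8 members, and 4 of them (50%) were lower by 1.5-fold or more, against 16.3% of all named genes, 1 of these by more than 2-fold. DDX3X, which helps ribosomes start on mRNAs with structured leaders, had 12.74 with vector and 11.31 with shCD133. It was 2.70-fold lower (-1.43). DDX3Y is a near-identical copy, so the value of DDX3X rests on how specific its 1 measured probe is.

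DHX29 binds the small ribosomal subunit and supports scanning of structured leaders. It had 11.28 with vector and 10.44 with shCD133 (-0.85), and its other probe differed by -0.69. DHX36, which resolves G-quadruplexes, had 9.66 and 9.00 (-0.65), with its other probe at -0.42. DHX9, also called RNA helicase A, unwinds long duplexes in transcription, translation and viral RNA. DHX9 had 10.55 and 9.66 (-0.89), and its other probe differed by -0.91. In each of these 3 genes every probe was lower with shCD133.

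The export helicases did not share this. DDX39A had 12.51 with vector and 13.02 with shCD133 (0.51), and its paralog DDX39B (UAP56), which loads export factors onto spliced mRNA, had 12.43 and 12.51 (0.08). DDX19B and DDX19A, which strip proteins from mRNA at the cytoplasmic face of the nuclear pore and are neighbours on chromosome 16, differed by 0.35 (11.29 and 11.64) and by -0.13 (10.89 and 10.76). The 3 probes of DDX19B lay between 0.35 and 0.56, and the 2 probes of DDX19A had opposite signs (-0.13 and 0.13). Each pair is so alike in sequence that a probe may read both copies. DHX34, which acts in nonsense-mediated decay, had 9.78 and 10.08 (0.30).

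The list of exon junction and export partners gave a like picture, but it does not hold every partner of the export helicases. All partner lists were chosen with earlier results of these data known. Of 11 measured exon junction and export genes 10 lay above 0 (90.9%, against 59.2% of all named genes). None was 1.5-fold lower, against 16.3%, or 1.5-fold higher, against 12.3%. The median was 0.31, with NXT1 at 0.53, THOC3 at 0.43, POLDIP3 at 0.41 and THOC6 at 0.36. The list of translation and decay partners had a median of -0.48 over 18 measured genes, of which 6 (33.3%) were at least 2-fold lower, 9 (50%) at least 1.5-fold lower and none 1.5-fold higher. The 6 were CNOT1 (-2.87, other probe -0.92), the translation factor EIF4G2 (-1.98, its 3 probes between -2.22 and -1.85), the decapping factors DCP1A (-1.74) and DCP2 (-1.53), LSM14A (-1.38), a P-body partner of DDX6, and EIF4B (-1.13), which stimulates eIF4A. The median of all named genes was 0.11, and 8.26% of them were at least 2-fold lower. At 1.5-fold 16.3% were lower and 12.3% higher.

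Both measured members of the mitochondrial role list lay above 0, as did 59.2% of all named genes. A list of 2 members does not describe mitochondrial helicases in general. DDX28, which takes part in assembly of the large mitochondrial ribosomal subunit, had 9.88 with vector and 10.49 with shCD133. Its difference of 0.61 (1.53-fold higher) was the highest of the family and the only one beyond 1.5-fold upward. DHX30, found with DDX28 in mitochondrial RNA granules, had 11.20 and 11.36 (0.16, other probe 0.39).

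DDX60 and DDX60L, interferon-inducible neighbours on chromosome 4, lay near the lowest value of the data, 6.65. Without a detection call it is not known whether such signals exceed background. DDX60 had 7.27 with vector and 7.12 with shCD133, and DDX60L had 7.32 and 7.16. Differences of -0.15 and -0.16 at these levels carry little information. The same holds for DDX43 (7.73 and 7.71) and DDX53 (7.15 and 7.28), genes known from testis and tumours. These 4 are the members with a log2 level under 8 on both arrays.

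The list of RNA ligase, germline, DNA and other roles (7 members, DDX43 and DDX53 included) had the lowest median of the role lists, -0.42. This median is the value of DHX32. Both DHX32 and DHX40 were placed in the list after the values had been seen, so the rank of its median depends on that placement. At least 1.5-fold lower were 2 (28.6%, against 16.3% of all named genes) and none was 1.5-fold higher, against 12.3%. DDX59 had 10.22 with vector and 9.54 with shCD133 (-0.68). DHX40 had 10.51 and 9.86 (-0.65), and its 3 probes lay between -0.65 and -0.28. These were the 2 past 1.5-fold. DDX1, a subunit of the tRNA ligase complex, had 12.82 and 12.28 (-0.54), and DHX32 had 11.19 and 10.77 (-0.42). DDX11, a DNA helicase of sister chromatid cohesion with close copies in the genome, had 8.30 and 8.66 (0.36).

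**Figure D3:**
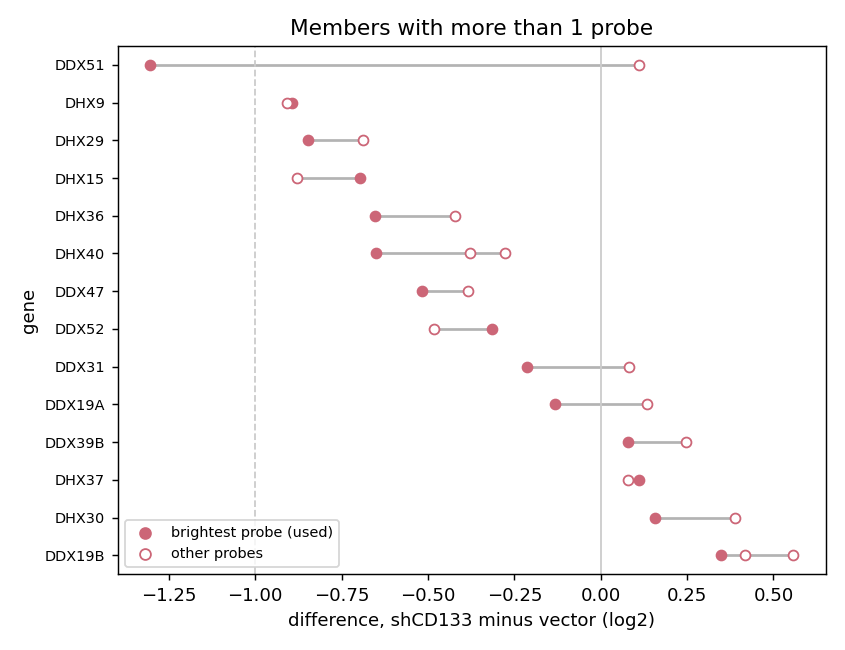
Difference (log2, shCD133 minus vector) of every probe of the 14 members with more than 1 probe, the brightest probe filled. The probes of DDX51 stand 1.41 apart, whereas those of DHX9 nearly coincide (-0.89 and -0.91).

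The agreement between probes of a gene is the only error these data hold. It leaves out variation between cultures. Of the 14 members with more than 1 probe 11 had all probes on the same side of 0, and the exceptions were DDX19A, DDX31 and DDX51. The SD of the difference between probes of a gene was 0.28 over these 14 members and 0.14 without DDX51, against 0.34 over 2907 named genes with more than 1 probe. Of the 14 members at least 1.5-fold lower, 6 had a further probe, and in 5 of these, all DHX genes (DHX9, DHX29, DHX15, DHX36 and DHX40), every probe was below 0. The other 8, among them DDX46, DDX21 and DDX3X, rest on 1 probe each.

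By symbol, 8 of 32 DDX genes (25%) and 6 of 14 DHX genes (42.9%) were at least 1.5-fold lower, against 16.3% of all named genes. Their median differences were -0.08 and -0.16. The DHX genes were also longer, with a median genomic span of 47.8 kb against 27.4 kb for the DDX genes. All 4 members at least 2-fold lower were DDX genes (12.5% of the DDX genes, against 8.26% of all named genes). The DHX genes spanned a narrower range, -0.94 to 0.42, than the DDX genes, -1.85 to 0.61, but are fewer. A difference between the 2 groups was not tested.

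Longer genes tended to be lower with shCD133 across the whole array, with a Spearman's rho of -0.34 between genomic span and difference over 11569 genes. Over the 46 members rho was -0.33, given as a description because the genes share 2 arrays and are not independent. The 23 members longer than the members' median span of 31.1 kb had a median difference of -0.31, and the 23 shorter ones 0.08. At least 1.5-fold lower were 8 of the longer members (34.8%), against 26.8% of all named genes above that span, and 6 of the shorter members (26.1%), against 7.24% of all named genes below it. DDX51 (7.73 kb) and DDX5 (8.61 kb) are short genes that were lower, and DDX10 is the longest member (275.9 kb). With the trend on gene length removed DDX46 differed by -1.73, DDX21 by -1.58, DDX3X by -1.57 and DDX51 by -1.54. At least 2-fold lower were then 6 members (13.0%, against 8.12% of all named genes).

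**Figure D4:**
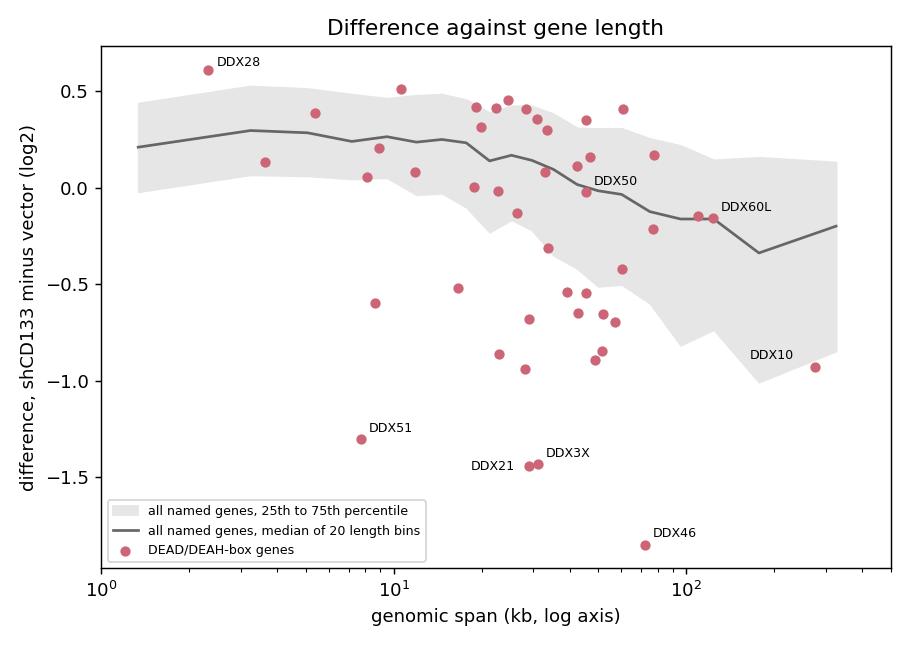
Difference (log2, shCD133 minus vector) against genomic span (kb, log axis) for the 46 members (points), with the median of all named genes in 20 bins of length (line) and their 25th to 75th percentiles (band). DDX46, DDX21, DDX3X and DDX51 lie below the band at their lengths.

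Helicases that share the fold but carry other symbols had a median of 0.00 over 17 measured genes, with 4 of them (23.5%) lower by 2-fold or more and none higher, against 8.26% and 2.08% of all named genes. HELZ, an RNA helicase that binds the CCR4-NOT complex, had 10.04 with vector and 7.66 with shCD133 (-2.38). This value rests on 1 probe, and the shCD133 level is under 8 without a detection call, as for DDX46. ASCC3, which pulls apart stalled ribosomes, differed by -1.65, but its 4 probes ran from -1.65 to 0.51. DICER1, which cuts microRNA precursors, differed by -1.48, and AQR by -1.23. The true DEAD-box proteins among them, the eIF4A group, stood near 0: EIF4A1 had 14.78 on both arrays, EIF4A2, its paralog in translation initiation, differed by -0.26 and EIF4A3, the anchor of the exon junction complex, by 0.31. HELZ2 (0.87) and MOV10 (0.62) were at least 1.5-fold higher, 2 of 17 genes (11.8%), against 12.3% of all named genes.

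Among 17 measured splicing and G-patch partners, which switch on DEAH-box helicases or surround them in the spliceosome, the median was -0.14. At least 1.5-fold lower were 6 (35.3%, against 16.3% of all named genes), and 2 of these (11.8%, against 8.26%) were past 2-fold, SF3B1 (-1.07) and the G-patch splicing factor RBM17 (-1.02). NKRF, a G-patch partner of DHX15 in the nucleolus, differed by -0.99 on 1 probe, with an shCD133 level of 7.78, also under 8. GPATCH4 differed by -0.76, with 3 probes between -0.76 and -0.20. CMTR1, the cap methyltransferase that binds DHX15, was 1.53-fold higher on its brighter probe (0.61), and its other probe differed by 0.20. Over all related and partner lists 12 of 73 measured genes (16.4%) were lower by 2-fold or more, against 8.26% of all named genes. None was higher by as much, against 2.08%. These lists were chosen with earlier results of these data known, so their shares are not independent support.

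**Figure D5:**
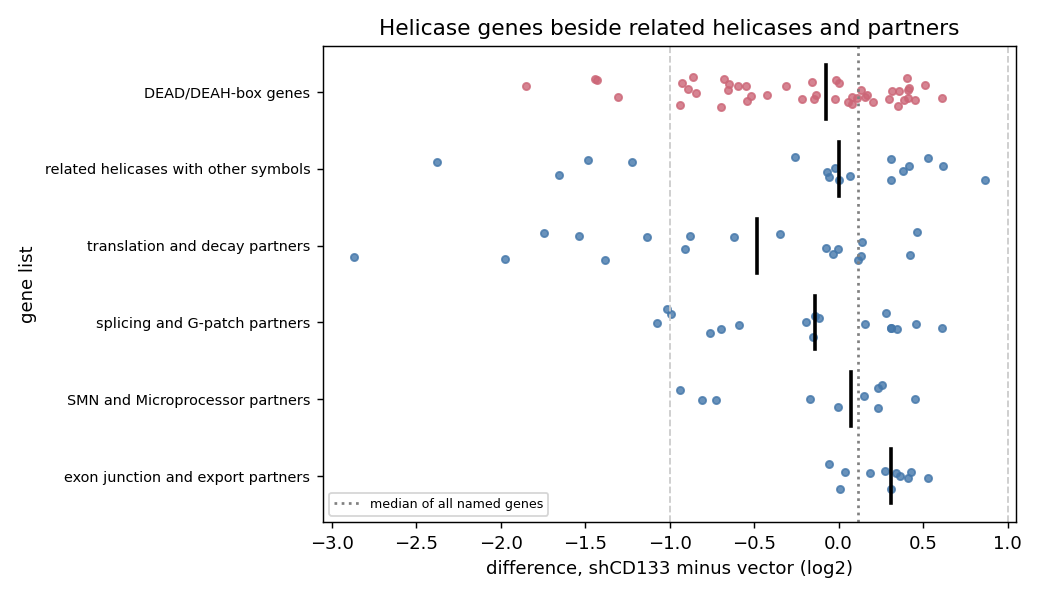
Difference (log2, shCD133 minus vector) of each gene in the DEAD/DEAH-box family and 5 related lists, with list medians (bars), the median of all named genes (dotted, 0.11) and 2-fold lines (dashed); the vertical scatter within a list has no meaning. Translation and decay partners have the lowest median (-0.48) and exon junction and export partners the highest (0.31).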

How the data were processed

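Total RNA was read on an Illumina bead array, 1 per condition. The values used were the log2 intensities deposited by the authors. The log base is not stated, and 2 was assumed because the values span 6.65 to 15.6. The sorted values of both arrays agreed within 0.00044, as after quantile normalization. GenomeStudio 2011.1 is named in the submitters' processing notes, without its role. A non-normalized table has 4 value columns whose names match neither sample, and these were not used. No detection call was therefore available.

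Of 47323 probes 19665 had a value, and 15205 of these had 1 gene symbol in the platform annotation, updated through the RefSeq table of GRCh38.p14 (15197 probes matched). They represent 11579 genes. Depth in counts does not apply, and the number of arrays limits precision. The gene collapse and counts were tested on simulated data. Python 3.11.15, pandas 2.3.3 and matplotlib 3.10.9 were used.

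The members, the role lists and the lists of related helicases and partners were chosen with earlier results of these data known. DHX32, DHX34 and DHX40 were placed in their lists by role after the values had been seen. All members could be named, with levels on both arrays for those at least 1.5-fold different or among the 2 with the largest difference of a role list. In related lists the 4 genes with the largest difference, any at least 2-fold different and direct counterparts were named. SNRNP200, GEMIN4, DGCR8, HELZ2, MOV10 and the 4 spliceosomal helicases set apart in the text were chosen after their values were seen. Alternatives were the mean over probes, centring, background subtraction (offset 16), removal of trends with level or length (20 bins), a 1.5-fold threshold and a minimum mean level of 8. Leaving out DDX51 was chosen after seeing the data.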

Additional observations from a re-analysis of the deposited data

How the results depend on the processing

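No paired analysis was possible because each condition had 1 array and no test was made. The count of 4 members at least 2-fold different was 3 with the mean over probes (6.52% against 8.97% of all named genes). It was 3 without DDX51 (6.67% against 10.3%) and 4 at a mean level of at least 8 (9.52% against 13.1%). Background subtraction gave 6 (13.0% against 17.0%) and removal of the length trend 6 (13.0% against 9.67%). Centring on the median gene gave 7 (15.2% against 11.5%) and removal of the trend on mean level 9 (19.6% against 12.1%). At 1.5-fold the count was 15 (32.6% against 28.6%). Unaltered it was 8.70% against 10.3%. All were lower members, except DDX28 at 1.5-fold. The median of -0.08 was -0.019 with the mean over probes, -0.021 without DDX51, -0.19 after centring, -0.18 with the level trend removed and -0.16 with the length trend removed. It was -0.08 with background subtraction and at a mean level of at least 8. Centring and trend removal set the median of all named genes to 0 by construction. The 15 members at least 1.5-fold different kept their sign with the mean over probes, centring, background subtraction and both trend removals. This was largely fixed by choosing them for a large difference. Centring shifts each gene by 0.11 only, subtraction of a constant cannot change a sign, and averaging leaves genes with 1 probe unchanged. Only DDX51 (-0.60, mean over probes) and DDX46 (-2.49, background subtracted) moved by more than the SD between probes of a gene, 0.34. Low signal, without a detection call, limits DDX43, DDX53, DDX60 and DDX60L, with a level under 8 on both arrays. It also limits DDX46, with a level under 8 on the shCD133 array.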
